A study of Mus musculus with 6 samples.

Results

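The genes described here encode the proteins of the cytosolic ribosome in the mouse hippocampus. They were chosen by symbol alone, as the rows of the deposited expression table named Rpl or Rps with a number, plus Rplp0, Rplp1, Rplp2 and Rpsa. The rule found 86 members among the 16060 rows, or 0.535% of the table. Of these, 42 encode large-subunit proteins, 31 encode small-subunit proteins and 3 encode the P stalk, and these 76 are called the core genes below. The other 10 are paralogues or gene copies, of which 5 are annotated as processed pseudogenes. The hippocampus of C57BL/6 mice was sequenced as poly-T selected mRNA from 3 mice given saline (Control) and 3 mice given repeated intraperitoneal MA (methamphetamine) in rising doses over several weeks. The mice were adult males, and the labels name no transgene or deletion in either group. The comparison of the libraries labelled MA with the libraries labelled Control asks which hippocampal transcripts differ after repeated MA.

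The ribosome is built from ribosomal RNA and a set of proteins that are needed in nearly equal amounts. The small subunit reads the mRNA, the large subunit joins the amino acids, and the P stalk is the part of the large subunit that recruits the elongation factors. Most mRNAs of ribosomal proteins begin with a C followed by a run of pyrimidines, the 5′ terminal oligopyrimidine (TOP) tract, through which the kinase mTOR controls their translation together. In the hippocampus, translation near synapses is needed for lasting forms of synaptic plasticity.

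The deposited values were read as log2(RPKM + 1), where RPKM is the read count scaled by transcript length and by mapped reads. The table holds no read totals, which leaves sequencing depth unknown, and counting intervals are not given. All differences below are log2 fold changes on this scale, MA minus Control. The test, limma, took genes that reached 0.5 on the linear scale in 3 or more libraries, which left 13321 genes and 83 of the 86 members. Rpl39l, Rpl3l and Rps3a3 did not pass. The library labelled MA 3 stood apart from the others. It listed 0 genes at 0, whereas the other 5 libraries listed between 259 and 437, and the weight limma estimated for it from its spread was 0.194, against 0.937 to 2.45 for the others. Results that rest on it are given with and without it. In bulk tissue, fewer cells of a type and less RNA per cell cannot be told apart. Every direction rests on the column labels. The activity-regulated genes Arc, Egr1 and Fos were lower in the libraries labelled MA. Arc had levels of 6.67, 6.23 and 6.22 in the libraries labelled Control and 4.77, 4.40 and 4.54 in those labelled MA. Whether the labels of the groups were exchanged cannot be told from the table, and an exchange would turn the sign of every difference below.

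The core genes were among the most abundant transcripts of every library. Their mean levels over the 6 libraries ran from 7.45 to 11.73, with a median of 9.25, whereas the median of all tested genes was 3.25. On the linear per-length scale, the highest core gene was 19.7 times the lowest. The lowest value of any core gene in any library was 7.32, in Rps20. Between 14 and 15 members stood among the 50 highest genes of each library, and between 51 and 60 among the highest 200. The members took 12.28%, 12.96% and 12.51% of the summed linear values in Control 1, 2 and 3, and 11.91%, 11.46% and 12.74% in MA 1, 2 and 3. The group means were 12.58% ± 0.348 (SD, n = 3) and 12.03% ± 0.650 (SD, n = 3), and the value of MA 3 lay within the range of the Control libraries. The sorted values of the libraries nearly coincide, as described below, so these shares follow the ranks of the members. They are no measured fraction of the transcripts. The core genes lie on 19 chromosomes, 4 of them on X, and their exonic length had a median of 1775.5 bases against 4501 for the tested genes (GENCODE M21, GRCm38). As counting by strand was not stated, reads of overlapping genes may be shared. Exons of 20 members overlap an exon of a gene on the other strand. Exons of 26 members overlap an exon of another gene on the same strand, many of these small nucleolar RNA genes.

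The annotated starts of these genes were searched for a tract like that of TOP mRNAs, which was found at part of them. Of the 86 members, 61 had an entry in the RefSeq promoter table (GRCm38.p6), with 66 promoters of 56 core genes. A tract was counted where a C was followed by C or T alone, over at least 6 bases on the coding strand, and began within 10 bases of the annotated start. Such a tract was found in 32 of the 66 core promoters (48.5%) and in 6302 of all 32851 promoters (19.2%). A C exactly at the start followed by pyrimidines over 5 bases in all was found in 13 core promoters (19.7%) and in 2.51% of all promoters. The letters CCGGAA, the core of the site of ETS factors such as GABP, stood on either strand in the 300 bases of 33 of the 66 core promoters and of 14.9% of all. TATAAA stood in 9.09% and 13.6%, and CACGTG, the E-box of MYC, in 12.1% and 7.15%. Of 75 promoters of mitochondrial ribosomal proteins, 57.3% held CCGGAA, 6.67% TATAAA and 9.33% CACGTG, and 21.3% had a tract. The high share of CCGGAA was thus not particular to the cytosolic ribosome. A match describes the letters in the window and is not a measured site. The 30 bases around the start of 7 core genes are shown because their mRNAs are described below, 5 with a tract (capitals) and 2 without one.
Rps6, chr4:86857353-86857382, minus strand: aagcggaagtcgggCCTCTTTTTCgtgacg
Rps27, chr3:90213634-90213663, minus strand: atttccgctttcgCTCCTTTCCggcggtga
Rps21, chr2:180257364-180257393, plus strand: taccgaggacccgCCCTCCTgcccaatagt
Rplp2, chr7:141447636-141447665, plus strand: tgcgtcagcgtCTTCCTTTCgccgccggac
Rpl38, chr11:114668565-114668594, plus strand: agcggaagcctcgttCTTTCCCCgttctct
Rps28, chr17:33824548-33824577, minus strand: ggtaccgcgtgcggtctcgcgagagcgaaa
Rps16, chr7:28350674-28350703, plus strand: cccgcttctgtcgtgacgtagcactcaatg
The annotated start lies after the 15th base of each line. Rps29, Rplp1, Rps20, Rpl30 and Rps27a have no entry in that table. Rps21 has another annotated start there, at chr2:180257434-180257463, without a tract of at least 6 bases.

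No ribosomal protein gene passed the test between the groups. Of the 83 members tested, 0 had an adjusted p under 0.05 (limma, Benjamini-Hochberg over all tested genes), and the smallest was 0.252. Over all genes, 35 of 13321 passed (0.263%), 22 higher and 13 lower. At an unadjusted p under 0.05, 2 members stood out (2.41%), both small-subunit genes with lower values in MA, beside 10.4% of all tested genes and 5.46% in the lower direction. The 3 MA values lay below the 3 Control values in 3 members (3.61%), against 10.2% of all tested genes, and above them in 0 members, against 7.32%. In either direction the groups of 17.5% of all tested genes did not overlap. Each of these shares was below that of the whole table, a difference that was not tested. The median log2 fold change was -0.055 over the 83 members and -0.010 over all tested genes, and 66 of the 83 had a negative value. By subunit, the median was -0.047 for the 42 large-subunit genes, -0.070 for the 31 small-subunit genes and -0.016 for the 3 P stalk genes.

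Intervals of limma over all 6 libraries bound the difference of each single core gene on this scale. The log2 fold changes of the core genes ran from -0.38 (Rps29) to 0.21 (Rps21), and 72 of the 76 were under 0.2 in size. The 95% intervals of limma reached a median of 0.206 to either side. For 72 of the 76 core genes the whole interval lay between -0.5 and 0.5, that is, within a 1.41-fold difference either way. The lowest bound of any core gene was -0.65, in Rps16, and the highest was 0.50, in Rps21. These bounds hold with MA 3 included. For Rps16 the log2 fold change was -0.45 without MA 3 and -0.49 where limma weighted the libraries. Levels are relative to the other genes of a library, so a shift shared by all of them is not bounded. Across the 76 core genes, Spearman's rho of the log2 fold change was 0.013 with exonic length and 0.096 with GC content, a description across genes that share their libraries.

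**Figure D1:**
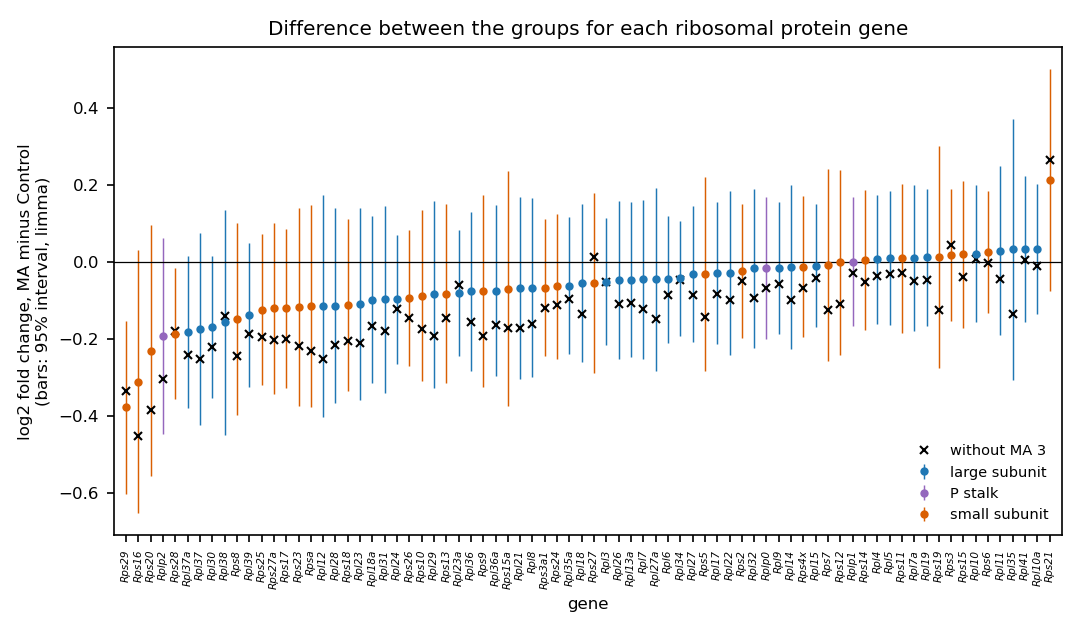
The log2 fold change (MA minus Control) of each core gene, with limma's 95% interval as a bar, ordered by size. Crosses give the same value without MA 3 and lie mostly lower. Rps29 (-0.38) and Rps21 (0.21) are at the ends, and most intervals include 0.

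The ribosomal protein genes moved together within a library. Relative to the mean of the 3 Control libraries, the median deviation of the 83 members was -0.0096, 0.023 and -0.0013 in Control 1, 2 and 3, then -0.097 in MA 1, -0.16 in MA 2 and 0.079 in MA 3. The members were thus low in 2 of the libraries labelled MA and high in the third, and the 3 MA libraries spread more widely than the Control libraries. The median of all tested genes stayed between -0.020 and 0.0043 in every library. The sorted values of the libraries nearly coincide, as described below. A whole-table median near 0 may thus be set by the shared scale and is no independent reference. In MA 2, 62 of the 76 core genes (81.6%) were below all 3 Control libraries, against 32.4% of all tested genes, and 48 (63.2%) had their lowest value of the 6 libraries there, against 15.7%. MA 1 had 47 (61.8%) below all Control libraries, against 34.1%. In MA 3, 45 core genes (59.2%) were above all 3 Control libraries, against 32.0%, and 5 were below. Both subunits took part. The large-subunit median was -0.083, -0.15 and 0.085 in MA 1, 2 and 3, and the small-subunit median was -0.10, -0.17 and 0.077.

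**Figure D2:**
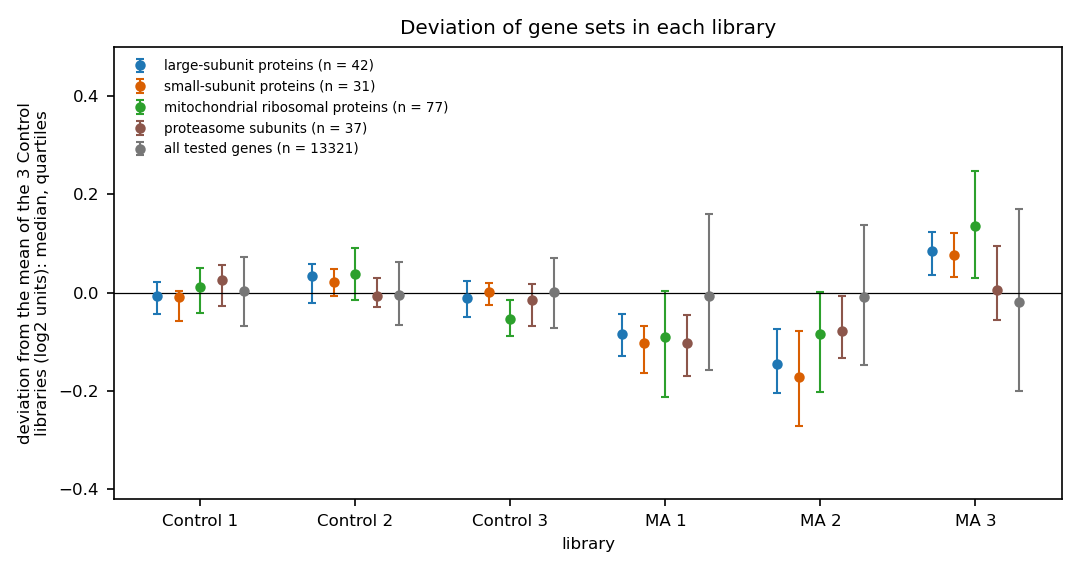
Median deviation from the mean of the Control libraries (log2 units) in each library, with quartiles as bars, for large-subunit, small-subunit, mitochondrial ribosomal and proteasome genes and for all tested genes. Both subunits lie below 0 in MA 1 and MA 2 and above 0 in MA 3. All tested genes are centred near 0, which the shared scale of the libraries may set.

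**Figure D3:**
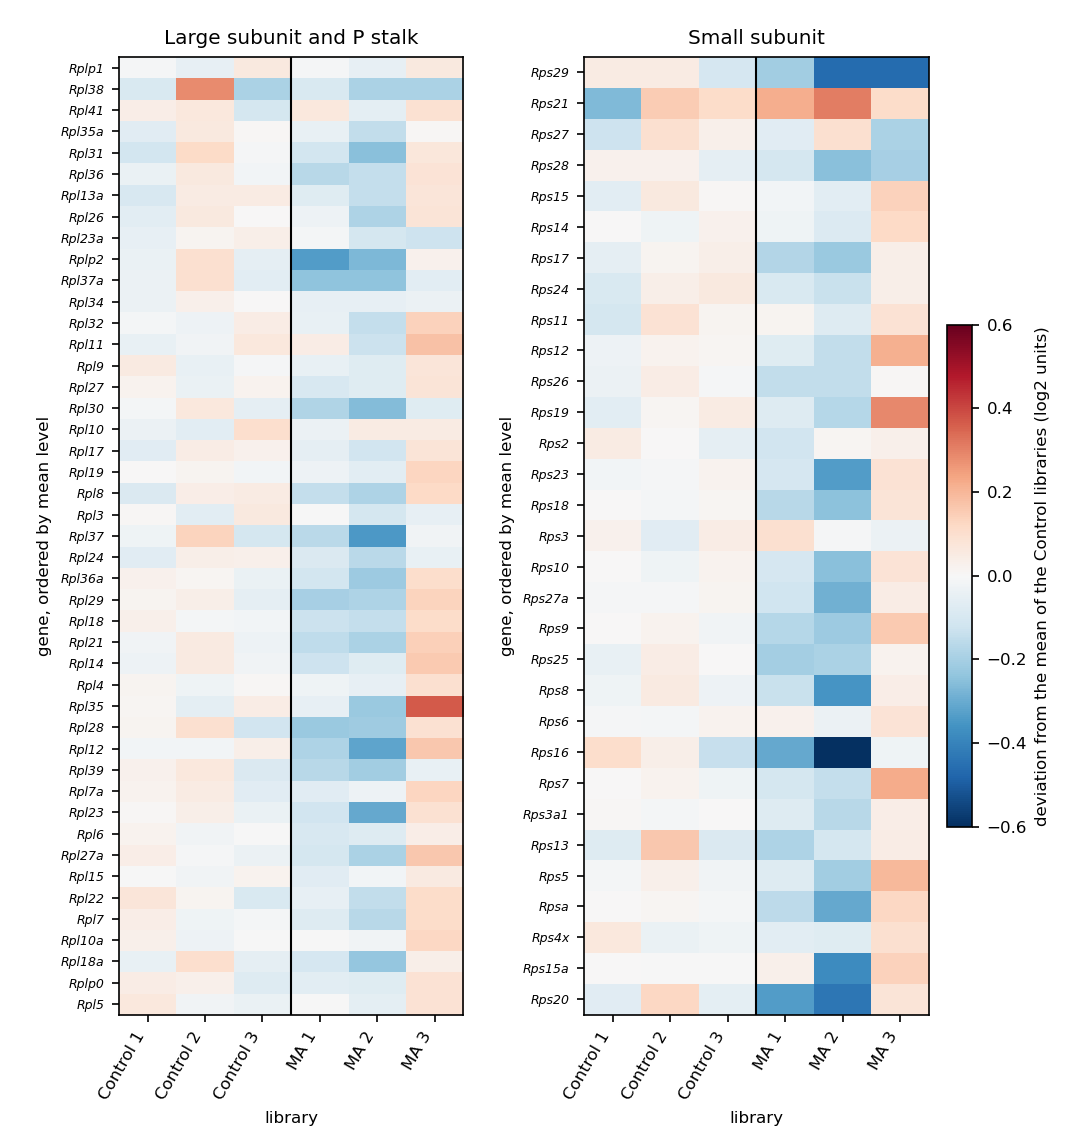
Deviation of each core gene (row, ordered by mean level) from its Control mean in each library (column), in log2 units. The column of MA 2 is mostly blue, with 62 of 76 genes below all Control libraries, and the column of MA 3 mostly red, with 45 above them, apart from genes such as Rps29, Rps28 and Rps27.

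Among the core genes, small-subunit genes held the lowest log2 fold changes. Rps29 (chr12:69157722-69159186, minus strand) encodes a small zinc-binding protein and had the highest mean level of all members. Its levels were 11.97, 11.97 and 11.82 in Control and 11.71, 11.46 and 11.46 in MA. The groups did not overlap, and Rps29 was low also in MA 3, where most members were high. The log2 fold change was -0.38 (SE 0.097, adjusted p = 0.252 by limma), and the exact two-sided permutation test gave p = 0.1, the smallest that 3 against 3 allows. Rps28 (chr17:33819027-33824562, minus strand), which overlaps an exon of Kank3 on the other strand, had levels of 10.70, 10.70 and 10.62 in Control and 10.56, 10.42 and 10.47 in MA. Its MA values also lay wholly below the Control values, by 0.19 on the log2 scale in the means (adjusted p = 0.440 by limma). Neither gene passed the test over all genes.

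Rps16 and Rps20 followed the library pattern instead. Rps16, whose product reaches the site of the initiator tRNA, had levels of 9.13, 9.06 and 8.89 in Control and 8.72, 8.42 and 8.99 in MA. It was lowest in MA 2, and MA 3 lay between Control 3 and Control 2 (log2 fold change -0.31, SE 0.15, adjusted p = 0.521 by limma). Rps20, a member of the head of the small subunit and the lowest of the core small-subunit genes in level, had 7.69, 7.88 and 7.70 in Control and 7.42, 7.32 and 7.84 in MA. MA 1 and MA 2 were below every Control library and MA 3 was not (log2 fold change -0.23, adjusted p = 0.627 by limma). Rpsa, the laminin receptor protein of the small subunit, had 8.35, 8.36 and 8.34 in Control and 8.19, 8.04 and 8.47 in MA. Its Control values lay close together, and its MA values spread on both sides of them (log2 fold change -0.11, adjusted p = 0.783 by limma). Rps27a, made as a fusion with ubiquitin, had 9.31, 9.31 and 9.34 in Control and 9.20, 9.03 and 9.36 in MA (log2 fold change -0.12, adjusted p = 0.718 by limma).

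A few small-subunit genes stayed level or ran the other way. Rps6, the ribosomal protein that S6 kinase phosphorylates downstream of mTOR, had levels of 8.95, 8.95 and 8.98 in Control and 8.99, 8.93 and 9.04 in MA. It had one of the 5 smallest spreads of all members (SD 0.041 over the 6 libraries), and its log2 fold change of 0.025 changed sign under other settings. Rps21 had the highest log2 fold change, with 11.14, 11.55 and 11.51 in Control and 11.62, 11.71 and 11.51 in MA. Control 1 was its lowest library and MA 3 equalled Control 3, so the groups overlapped (log2 fold change 0.21, SE 0.12, adjusted p = 0.610 by limma). Rps27 had 11.40, 11.62 and 11.55 in Control and 11.46, 11.62 and 11.34 in MA, with its lowest value in MA 3 (log2 fold change -0.054).

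**Figure D4:**
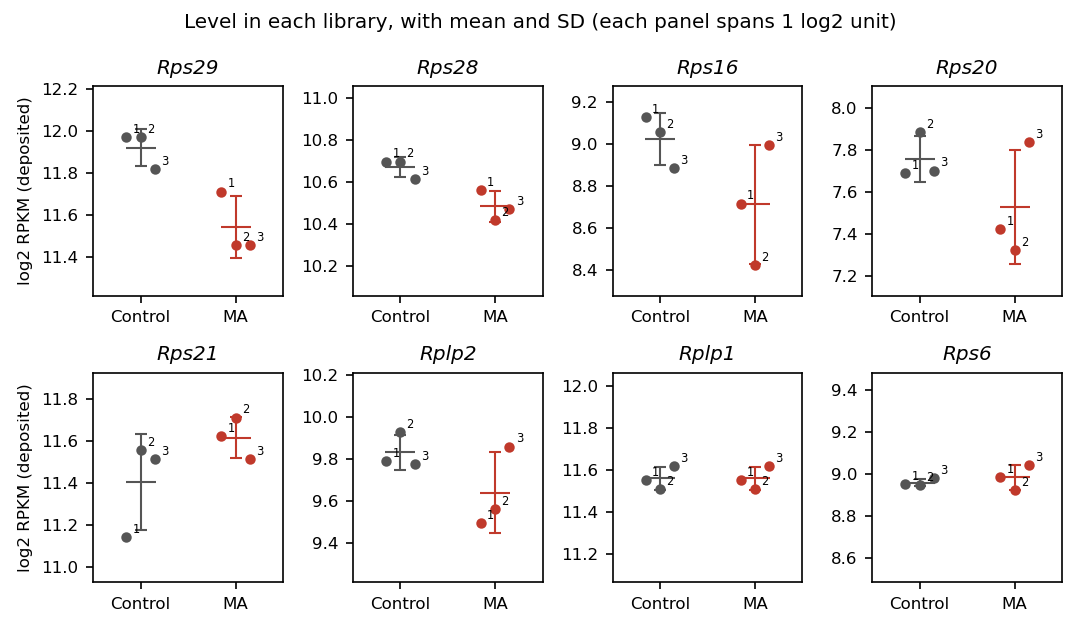
Deposited log2 level of 8 ribosomal protein genes in each library (points, numbered by replicate), with the mean and SD of each group; every panel spans 1 log2 unit. The groups are apart in Rps29 and Rps28, whereas MA 3 lies with the Control libraries in Rps16, Rps20 and Rplp2, and Rplp1 has the same 3 values in both groups.

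Over all 6 libraries, no difference between the groups exceeded 0.2 in size among large-subunit genes. Without MA 3 several did, among them Rpl37a (-0.24) and Rpl30 (-0.22). Where limma weighted the libraries, these 2 were at -0.25 and -0.24. Rpl30, whose product lies at the interface of the subunits, had levels of 9.49, 9.56 and 9.44 in Control and 9.32, 9.23 and 9.43 in MA. It was the third member whose groups did not overlap, with MA 3 just below Control 3 (log2 fold change -0.17, SE 0.079, adjusted p = 0.516 by limma). Rpl37a, a zinc-binding protein, had 9.74, 9.87 and 9.72 in Control and 9.54, 9.54 and 9.72 in MA, where MA 3 equalled Control 3 (log2 fold change -0.18, adjusted p = 0.517 by limma). Rpl38 had 10.96, 11.34 and 10.87 in Control and 10.96, 10.87 and 10.87 in MA, and its spread came mainly from Control 2 (log2 fold change -0.16). The highest large-subunit fold changes were those of Rpl10a and Rpl41. Rpl10a had 7.99, 7.93 and 7.96 in Control and 7.95, 7.94 and 8.08 in MA (log2 fold change 0.033, 95% interval -0.14 to 0.20). Rpl41, which encodes the smallest protein of the ribosome, had 10.62, 10.64 and 10.47 in Control and 10.64, 10.52 and 10.67 in MA (log2 fold change 0.032). Rpl34 and Rpl15 varied least among large-subunit genes, with SDs of 0.032 and 0.040 over the 6 libraries. Rpl34 lay between 9.65 and 9.73 in all 6 libraries.

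The P stalk genes differed from each other in how they varied. Rplp0, the protein that anchors the stalk, had levels of 7.86, 7.85 and 7.74 in Control and 7.75, 7.75 and 7.90 in MA (log2 fold change -0.016). Rplp1 had 11.55, 11.51 and 11.62 in both Control and MA, the same 3 values in the same order. Rplp2, which pairs with Rplp1 in the stalk, had 9.79, 9.93 and 9.78 in Control and 9.49, 9.56 and 9.86 in MA, low in MA 1 and MA 2 alone (log2 fold change -0.19, SE 0.11, adjusted p = 0.603 by limma). The difference Rplp2 minus Rplp1 was -1.76, -1.58 and -1.85 in Control and -2.06, -1.95 and -1.76 in MA, and it differed by -0.19 between the groups (exact two-sided permutation p = 0.3, adjusted p = 0.9 over 9 pairs).

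The identical values of Rplp1 reflect a scale that the libraries share, though how it was made is not described. At each of the top 41 ranks, all 6 libraries held 1 shared value, and further down the sorted values still nearly coincided. The level of a gene near the top thus states its rank in the library. Rplp1 held ranks 6, 7 and 5 in Control and 6, 7 and 5 in MA. Rps29 held ranks 2, 2 and 3 in Control and 4, 8 and 8 in MA. Rps21 held ranks 13, 6 and 7 in Control and 5, 4 and 7 in MA. Ttr, the transthyretin gene of the choroid plexus, reached rank 13 in MA 2 and rank 1 in MA 3. For the 5 highest members, a fold change is therefore a change of place among the highest genes.

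**Figure D5:**
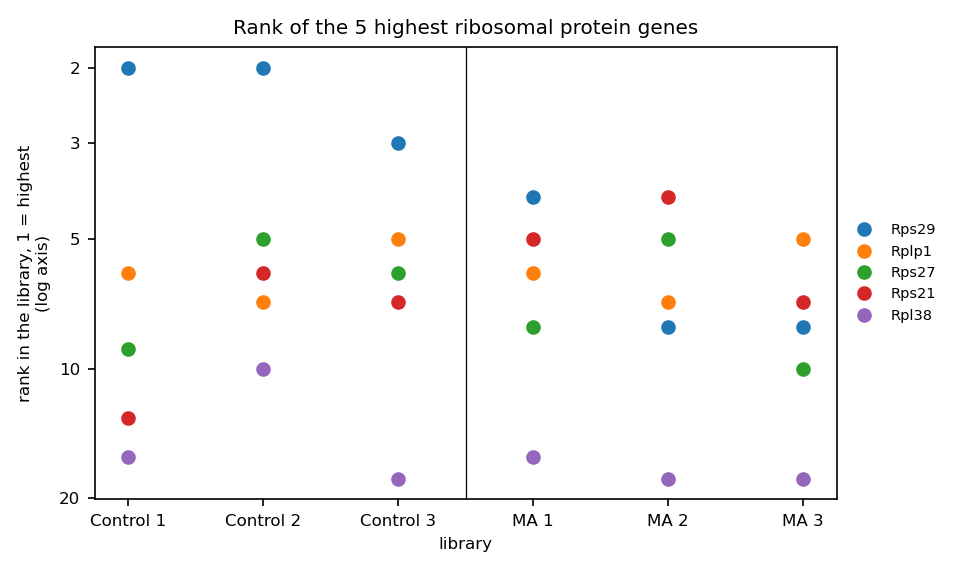
Rank of the 5 highest ribosomal protein genes among all genes of each library (log axis, 1 is the highest). Rps29 falls from ranks 2 to 3 in the Control libraries to ranks 4 to 8 in the MA libraries, and Rplp1 holds ranks 5 to 7 in both groups.

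Paralogues and copies were set against their parent genes within each library, which removes a shift shared by both. For 9 pairs the difference of log2 levels, paralogue minus gene, was compared between the groups with an exact two-sided permutation test. The smallest unadjusted p was 0.2 and every adjusted p was at least 0.9. Rpl22l1, a paralogue of Rpl22, was the paralogue nearest its parent in level, with 7.89, 7.97 and 7.98 in Control and 7.94, 7.87 and 7.94 in MA. Rpl22 was 1.13 times as high on the linear per-length scale, and the difference changed by 0.0036 between the groups. Rps27l, a target of p53, lay far below Rps27, at 5.99, 6.08 and 6.07 in Control and 5.90, 5.80 and 6.20 in MA, and Rps27 was 45.7 times as high. Rpl7l1 had 4.21, 4.30 and 4.39 in Control and 4.08, 4.04 and 4.23 in MA, and its difference from Rpl7 was lower by 0.13 in MA (p = 0.2, exact permutation). For Rpl36al, a paralogue of Rpl36a, the mean difference was -0.58 in Control and -0.60 in MA. Rpl3l, the striated muscle form of Rpl3, lay between 0.29 and 0.57 in all 6 libraries, and Rpl39l, the testis form of Rpl39, between 0 and 0.43, listed at 0 in MA 1 and MA 2.

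The pseudogene rows Rps4l, Rps3a2, Rps12l1 and Rpl6l passed the filter. Their reads may come in part from the near-identical parent genes, so their levels are uncertain. Rps4l had 4.98, 4.93 and 4.93 in Control and 5.17, 4.74 and 5.05 in MA. Rps3a2 had 6.30, 6.24 and 6.30 in Control and 6.16, 6.02 and 6.59 in MA, lowest in MA 2 and highest in MA 3. Rps12l1 had the largest SD of all members (0.46 over the 6 libraries), with 2.52, 3.11 and 2.10 in Control and 1.76, 2.19 and 2.24 in MA (log2 fold change -0.51, SE 0.26, adjusted p = 0.560 by limma). Rpl6l lay between 0.97 and 1.29 in all 6 libraries.

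The result depended on MA 3. Without that library, 77 of the 83 members had a negative log2 fold change, with a median of -0.13. Still 0 members passed the test, beside 257 of all genes (1.93%, and 0.743% lower in MA), and the smallest adjusted p was 0.0664 (Rps20, limma). At an unadjusted p under 0.05, 32 members (38.6%) were lower in MA and 0 were higher, against 11.4% of all tested genes in the lower direction and 23.3% in either. Where limma weighted the libraries by their spread instead, 3 members passed (3.61%), against 4.4% of all tested genes and 2.05% in the lower direction. They were Rps29 (log2 fold change -0.40, adjusted p = 0.0397), Rps16 (-0.49, adjusted p = 0.0469) and Rps20 (-0.40, adjusted p = 0.0487), all lower in MA. In that fit, 33 members stood at an unadjusted p under 0.05, all lower, against 13.4% of all tested genes in that direction. With a correction of each library for exonic length and GC content, 0 members passed, against 0.233% of the genes tested, and 4 were lower at an unadjusted p under 0.05, against 5.47% in that direction and 11.2% in either. Without MA 2, by contrast, the median of the members was -0.0083, against -0.012 for all tested genes. In that fit 56.6% of the members had a negative value, against 52.9% of all tested genes. Of the counts at an unadjusted p under 0.05, those without Control 1, Control 2 or MA 2 were 1 each.

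Genes that act with the ribosomal proteins gave no call either. Over the lists of other ribosome genes, translation factors, other TOP mRNAs, RNA polymerase I, assembly factors, mTOR signalling, MYC, p53 targets and ribosome quality control, 0 of 272 tested genes passed (limma, adjusted over all tested genes), beside the 0.263% of the table. At an unadjusted p under 0.05 there were 13, 3 higher and 10 lower in MA, beside 10.4% of all tested genes, and the median log2 fold change was -0.034. Among the 6 other ribosome genes, Fau, which encodes a ubiquitin-like fusion with a small-subunit protein, had 9.91, 9.96 and 9.93 in Control and 9.89, 9.83 and 10.01 in MA. Gnb2l1, the older symbol of the small-subunit scaffold Rack1, had 7.26, 7.37 and 7.25 in Control and 7.13, 7.003 and 7.50 in MA. Both were lowest in MA 2 and highest in MA 3, as the core genes mostly were.

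Of the 48 initiation factors, 2 were higher and 3 lower at an unadjusted p under 0.05, a share like the 10.4% of all tested genes. Eif2b2, a subunit of the guanine exchange factor of eIF2, had 5.59, 5.69 and 5.54 in Control and 5.87, 6.10 and 6.13 in MA (log2 fold change 0.43, SE 0.094, adjusted p = 0.203 by limma). Eif1b had 7.76, 7.79 and 7.80 in Control and 7.43, 7.38 and 7.65 in MA (log2 fold change -0.30, adjusted p = 0.313 by limma). None of the 14 elongation factors and none of the 27 other TOP mRNAs had an unadjusted p under 0.05, with median log2 fold changes of 0.0015 and -0.026. In MA 1, 2 and 3, the TOP mRNAs other than ribosomal proteins had median deviations of -0.12, -0.047 and 0.049.

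Genes of ribosome production and its control also gave 0 calls, and at an unadjusted p under 0.05 each of these lists except the MYC factors held a smaller share of genes than the 10.4% of the whole table. Among 23 genes of RNA polymerase I and its transcription, Ubtf, the factor that holds ribosomal DNA open, had 5.86, 5.83 and 5.87 in Control and 5.57, 5.54 and 5.55 in MA. Its groups were apart by more than their spread (log2 fold change -0.30, SE 0.068, adjusted p = 0.208 by limma). Polr1c, shared by RNA polymerases I and III, had 4.97, 4.78 and 4.64 in Control and 5.18, 5.16 and 4.999 in MA (log2 fold change 0.32, adjusted p = 0.383 by limma). Of 56 large-subunit assembly factors, 3 were lower at an unadjusted p under 0.05, among them nucleolin (Ncl, log2 fold change -0.33, adjusted p = 0.440 by limma), and of 48 small-subunit assembly factors 1 was, Utp18 (log2 fold change -0.27). Max, the partner of MYC, was 1 of 2 lower among 10 MYC factors, with 5.22, 5.20 and 5.11 in Control and 4.97, 4.86 and 4.85 in MA (log2 fold change -0.28, adjusted p = 0.290 by limma). The 35 genes of mTOR and S6 kinase control had 0 at an unadjusted p under 0.05 and a median log2 fold change of 0.028. The 13 p53 and ribosomal stress genes and the 14 ribosome quality control genes likewise had 0.

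Other large complexes served as the closest comparison. The 77 genes of the mitochondrial ribosome, encoded in the nucleus, had 0 calls and a median log2 fold change of -0.016, and 1 was higher and 1 lower at an unadjusted p under 0.05. Their median deviations in MA 1, 2 and 3 were -0.090, -0.084 and 0.14, in the same directions as those of the cytosolic ribosome. The 37 tested proteasome genes had 0 calls and a median of -0.054, with deviations of -0.10, -0.077 and 0.0059. The 40 tested pseudogene rows of ribosomal proteins outside the rule deviated by -0.29, -0.29 and 0.19. The library pattern was thus not particular to the cytosolic ribosome, and whether its size differed between these sets was not tested.

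Markers of other cells moved with the groups. Of 15 choroid plexus markers, 6 passed the test, all higher in MA, among them Enpp2 (log2 fold change 2.13) and Kl (1.43), with median deviations of 1.34, 1.63 and 1.93 in MA 1, 2 and 3. Their summed level lay between 6.77 and 8.93 in Control and between 10.93 and 12.39 in MA on the log2 scale. Of 5 tested blood markers, 3 haemoglobin genes passed, all higher, with a summed level of 10.64 to 10.98 in Control and 11.70 to 12.10 in MA. Markers of hippocampal neurons, the labelled tissue, were present in every library. Of 13 tested, 0 passed, 12 had negative values and the median was -0.15. At an unadjusted p under 0.05, 2 were lower and 0 higher, beside 10.4% of all tested genes in either direction. Of the 10 tested thalamus markers, 10 oligodendrocyte, 12 microglia, 10 astrocyte and 10 endothelium markers, 0 passed, with medians of 0.58, -0.20, -0.060, -0.045 and 0.049. At an unadjusted p under 0.05, 2 endothelium markers were higher, 1 astrocyte marker was lower, and 0 oligodendrocyte or microglia markers stood out. Some of these sets also set MA 1 and MA 2 apart from MA 3. Among oligodendrocyte markers the median deviations were -0.20, -0.57 and 0.090 in MA 1, 2 and 3, the directions of the ribosomal protein genes. Thalamus markers ran the other way, with 0.87, 0.83 and -0.16, all 10 with positive log2 fold changes and 3 of them at an unadjusted p under 0.05, and so did endothelium markers, with 0.32, 0.18 and -0.20. Of 6 long nuclear RNAs used as a sign of RNA quality 0 passed, with a median of 0.098 and deviations of -0.012, 0.31 and 0.19 in MA 1, 2 and 3, and 2 were higher at an unadjusted p under 0.05. Meg3 was one of them, with 7.63, 7.63 and 7.50 in Control and 8.04, 8.17 and 8.20 in MA (log2 fold change 0.55, adjusted p = 0.0573 by limma). The choroid plexus and blood markers were high in all 3 MA libraries, whereas the ribosomal protein genes were low in 2 and high in 1. The part of these cells, and of RNA quality, in the values of the ribosomal protein genes was not tested.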

How the data were processed

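Hippocampal RNA of 3 Control and 3 MA mice was sequenced. The methods of the study name Hisat2 for the alignment, featureCounts for counting and FPKM as the unit. The submitters' processing notes name Bowtie 0.12.2 and the builds mm8 and mm9. The labels and the methods also name different extraction and library kits, and which build and aligner made the table is not given in the sources used here. The authors deposited 1 table named as RPKM, whose values lie on a log2 scale and share 1 highest value in all libraries. How the values were transformed and brought to a shared scale is not described, and the offset of 1 was read from the lowest value of 0. Columns were matched to samples by name, and all directions rest on these labels.

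The deposited log2 values were tested as they were with limma 3.58.1 in R 4.3.3 (lmFit, eBayes with a trend), without covariates, and p-values were adjusted by Benjamini-Hochberg. A call is an adjusted p under 0.05. The test was checked on simulated data. Single values were compared with an exact permutation test, whose smallest p is 0.1. Members were matched on the symbols of the table, and coordinates are those of GENCODE M21 (GRCm38), where 16001 of 16031 identifiers were found. Promoters are from RefSeq. Named members were those with the smallest p, the largest and smallest SD, and the highest and lowest level, 5 of each, plus paralogue pairs, the P stalk, Rpsa, Rps6, Rps27a and ribosome genes outside the symbol rule, and, of each other list, called genes or the smallest p in each direction. Arc, Egr1, Fos and Ttr were named after their values were seen, and 1 gene of this rule is not reported here. Members and lists were chosen with earlier results of these data known. Alternatives were the offset, the filter, the scaling, the prior, library weights, a length and GC correction, the replicate block and leaving out each library. As the sorted values of the libraries already nearly coincide, the alternatives of scaling could change little.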

Additional observations from a re-analysis of the deposited data

How the results depend on the processing

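Under every alternative run, the median log2 fold change of the members stayed negative, between -0.0083 and -0.14, as did those of both subunits. That of the P stalk changed sign without MA 1 (0.0040) or MA 2 (0.012). Without MA 2, the median of the members (-0.0083) was not below that of all tested genes (-0.012). The number of genes called over the whole table moved from 35 to 3 with no filter, 20 with a minimum mean of 5, 586 with library weights, 15 with the replicate block, 8 with the block and the length and GC correction together, and between 0 and 257 when 1 library was left out (3, 0 and 0 without Control 1, 2 and 3, and 15, 0 and 257 without MA 1, 2 and 3). Members called moved from 0 to 3 with library weights only. Members at an unadjusted p under 0.05 moved from 2 to 1 without the trend, 33 with library weights, 1 with the replicate block, 4 with the length and GC correction, and between 1 and 32 when 1 library was left out. Other translation genes called moved from 0 to 8 with library weights and to between 0 and 2 when 1 library was left out. The cause of these changes was not tested.

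Replicate numbers did not pair the libraries: deviations of same-numbered libraries correlated at -0.20, -0.24 and -0.34 over the tested genes and at 0.097, 0.32 and -0.11 over the members. The replicate block left 0 members called.

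Of 627 comparisons over 37 named genes and 17 settings, the sign changed in 38, over 16 genes, whose log2 fold changes were at most 0.086 in size. With library weights the new values were Rpl10a at -0.0025, Rpl41 at -0.026, Rps6 at -0.010, Rps4l at -0.075, Rps27 at 0.018. With the length and GC correction, alone or with the replicate block, they were Rps6 at -0.017, Rpl15 at 0.035, Rpl22l1 at 0.019, Rps4x at 0.0039, Rps3a2 at 0.024. When 1 library was left out, log2 fold changes ran from -0.012 to 0.060 in Rpl10a, -0.020 to 0.077 in Rpl41, -0.0039 to 0.055 in Rps6, -0.051 to 0.16 in Rps4l, -0.041 to 0.017 in Rpl15, -0.053 to 0.00029 in Rpl22l1, -0.13 to 0.013 in Rps27, -0.100 to 0.030 in Rpl22, -0.20 to 0.00019 in Rps27l, -0.068 to 0.018 in Rps4x, -0.012 to 0.071 in Rpl10, -0.12 to 0.016 in Rpl7, -0.18 to 0.10 in Rps3a2, -0.068 to 0.012 in Rplp0, -0.074 to 0.015 in Fau, -0.23 to 0.017 in Gnb2l1. Paralogue differences ran from -0.060 to 0.066 in Rpl22l1 minus Rpl22, -0.21 to 0.13 in Rps27l minus Rps27, -0.098 to 0.046 in Rpl39l minus Rpl39, -0.064 to 0.15 in Rps4l minus Rps4x, -0.070 to 0.018 in Rpl36al minus Rpl36a, -0.064 to 0.12 in Rps3a2 minus Rps3a1. The difference of Rpl39l from Rpl39, which rests on values near 0, was -0.80 with an offset of 0.1 in place of 1, and the replicate block changed no paralogue difference. The unknown depth limits what can be said of single low genes.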
